A study of Mus musculus with 4 samples.

Results

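Cyclin E and its kinase partner CDK2, with the proteins that switch the kinase on, assist it or mark its partners for destruction, form the set described here. It comprises 7 genes: the cyclins Ccne1 and Ccne2, the kinase gene Cdk2, the phosphatase gene Cdc25a, the ubiquitin ligase genes Skp2 and Fbxw7, and Cks1b, which encodes a small CDK-binding adaptor. Members were taken by gene, through the RefSeq accession that the array files give for each probe, and every probe was kept. These are 7 of 20972 genes with a symbol on the array and 10 of its 55681 non-control probes. The rule is by gene and sets no limit on a measured value, but the genes were proposed with earlier results of these data known.

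In mammalian cells, cyclin D with CDK4 or CDK6 begins to phosphorylate RB, which frees E2F factors to transcribe the genes of DNA synthesis, cyclin E among them. Cyclin E then binds CDK2, CDC25A removes inhibitory phosphates from the kinase, and the active complex completes RB phosphorylation and fires replication origins. The ubiquitin ligase SCF ends this state in different ways: with SKP2 and CKS1 it destroys the CDK inhibitor p27, and with FBXW7 it destroys cyclin E itself. Much of this control acts on proteins, whereas the arrays measured transcripts.

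RNA came from asynchronous cultures of cell lines grown out of fetal liver (mixed C57BL/6J and CD-1 background) after transduction with p185 BCR-ABL1, the fusion kinase of acute lymphoblastic leukaemia, so all groups carry this transgene. Lines were wild type (WT) or homozygous for Cdk4 R24C and Cdk6 R31C (R/R), substitutions known to keep INK4 inhibitors from binding the kinases. On 3 two-colour arrays, R/R clones 1, 2 and 3 (Cy5) were each set against a WT pool (Cy3), and on the remaining one an R/R pool (Cy3) was set against the WT pool (Cy5). The labels do not say which lines the pools held or whether the R/R pool shares RNA with the clones, and the clone identifiers of clones 1 and 2 share a stem. The comparison addresses how transcript levels differ where CDK4 and CDK6 escape INK4 inhibition.

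All 9 pre-B cell marker genes examined were well above background in both channels of all 4 arrays, and none of 4 hepatocyte markers was above background in any. The pre-B markers had median log2 ratios of 0.073, -0.30 and 0.24 in clones 1, 2 and 3 and -0.066 in the R/R pool. Dntt differed most between clones, at 1.31, -1.67 and 1.92, with 0.71 in the R/R pool, and none of the 9 passed the limma test. Of 4 erythroid markers, Hbb-bt alone was above background, with log2 ratios of -1.39, -1.80 and -2.40 in clones 1, 2 and 3 and -1.82 in the R/R pool. It fell by 1.84 (limma adjusted p = 0.036), and its part in the results below was not tested. Of the 5 myeloid markers, Elane, Csf1r and Itgam were above background in every channel, and of the 3 T cell markers, Cd3e was. Between 42.8% and 53.4% of spots were well above background per channel. Across the 26439 probes tested, 49 were higher and 106 lower in R/R (0.185% and 0.401%, 0.586% in all) at a limma adjusted p under 0.05. The split moved to 3 higher and 29 lower with median centring, and to 8 higher and 49 lower with the ratios the scanner software had computed. It was 16 and 61 without clone 1, 123 and 238 without clone 3, and 632 and 797 with the 4 arrays as replicates and no dye term.

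Promoter sequences of 3 members are shown to place them in this circuit: Ccne1 and Cdc25a, both known E2F targets, and Cks1b, whose 2 probes had the highest fitted ratios of the set. The sequences are from RefSeq (GRCm38.p6), run 5′ to 3′ on the strand of the gene and span 250 bases before to 50 bases after the start. They lie at chr7:38107441-38107740 (minus strand, Ccne1), chr9:109875329-109875628 (plus strand, Cdc25a) and chr3:89418242-89418541 (minus strand, Cks1b). Capitals mark the E2F octamer (TTTCCCGC, TTTCGCGC, TTTGCCGC or TTTGGCGC, either strand) in the first 2 sequences. In the Cks1b sequence they mark CCAAT and TTTGAA, the CHR element of late cell cycle promoters, also on either strand.
Ccne1: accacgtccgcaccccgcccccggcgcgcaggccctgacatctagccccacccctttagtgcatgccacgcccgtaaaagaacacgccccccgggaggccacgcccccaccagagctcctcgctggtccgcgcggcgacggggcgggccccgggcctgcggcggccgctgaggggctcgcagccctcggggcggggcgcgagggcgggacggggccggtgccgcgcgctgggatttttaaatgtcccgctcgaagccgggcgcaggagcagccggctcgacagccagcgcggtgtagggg
Cdc25a: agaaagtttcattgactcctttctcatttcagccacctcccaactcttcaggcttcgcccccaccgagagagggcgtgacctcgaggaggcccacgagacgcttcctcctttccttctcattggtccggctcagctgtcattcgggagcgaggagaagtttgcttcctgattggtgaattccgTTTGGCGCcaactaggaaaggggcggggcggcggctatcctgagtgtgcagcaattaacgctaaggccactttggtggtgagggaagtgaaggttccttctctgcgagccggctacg
Cks1b: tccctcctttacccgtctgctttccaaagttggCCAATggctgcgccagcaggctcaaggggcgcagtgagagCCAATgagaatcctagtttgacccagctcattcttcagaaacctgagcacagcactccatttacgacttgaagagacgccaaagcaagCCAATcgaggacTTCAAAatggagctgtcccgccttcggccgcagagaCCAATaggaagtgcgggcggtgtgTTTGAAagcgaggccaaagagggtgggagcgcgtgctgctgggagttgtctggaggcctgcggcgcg
The Cdc25a window held 1 E2F octamer, TTTGGCGC, beginning 67 bases before the start used for this window. The annotated gene begins further upstream, at chr9:109875518, so this start lies inside it. The Ccne1 window held none of these octamers. The octamer was present in 2 of the 9 windows that the table holds for 6 members, 1 of Cdc25a and 1 of Cdk2, and in 2.26% of 32851 windows of all genes. The Cks1b window held 4 CCAAT boxes, a count reached by 1.06% of all windows, and 2 TTTGAA elements, a count reached by 2.31%. Of the 9 member windows, 4 held a CCAAT box (Cdc25a, Cdk2, Cks1b and 1 window of Skp2), as did 37.4% of all windows. TTTGAA was present in 2 of the 9 and in 17.9% of all windows, with 2 elements each in Cks1b and in the same Skp2 window. A match describes the letters of the window, and no factor binding was measured.

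No member probe passed the test. The smallest absolute log2 ratio among all called probes was 0.66, so no probe was called at a ratio as small as those of the members. Of the 9 probes tested, 3 had an unadjusted p under 0.05 in limma, both Cks1b probes and the Cdc25a probe, all higher in R/R, where 14.9% of all tested probes reached that level and 7.1% did so as higher. Ccne2 was not well above background in either channel of any array and was not tested. The fitted log2 ratio was above 0 for 7 of the 9 probes, against 47.6% of all tested probes. Its median was 0.11 over the members and -0.011 over all probes. Fitted values give the mean of the clones and the R/R pool equal weight. The R/R pool array is also the array with swapped dyes, so pool and dye cannot be told apart where it departs from the clones. Each probe has 2 residual degrees of freedom, from the 3 clones, and limma moderates its spread toward that of all tested probes, so that the SE of a probe with close clones rests mostly on the other probes. The WT pool contributes no spread of its own.

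**Figure D1:**
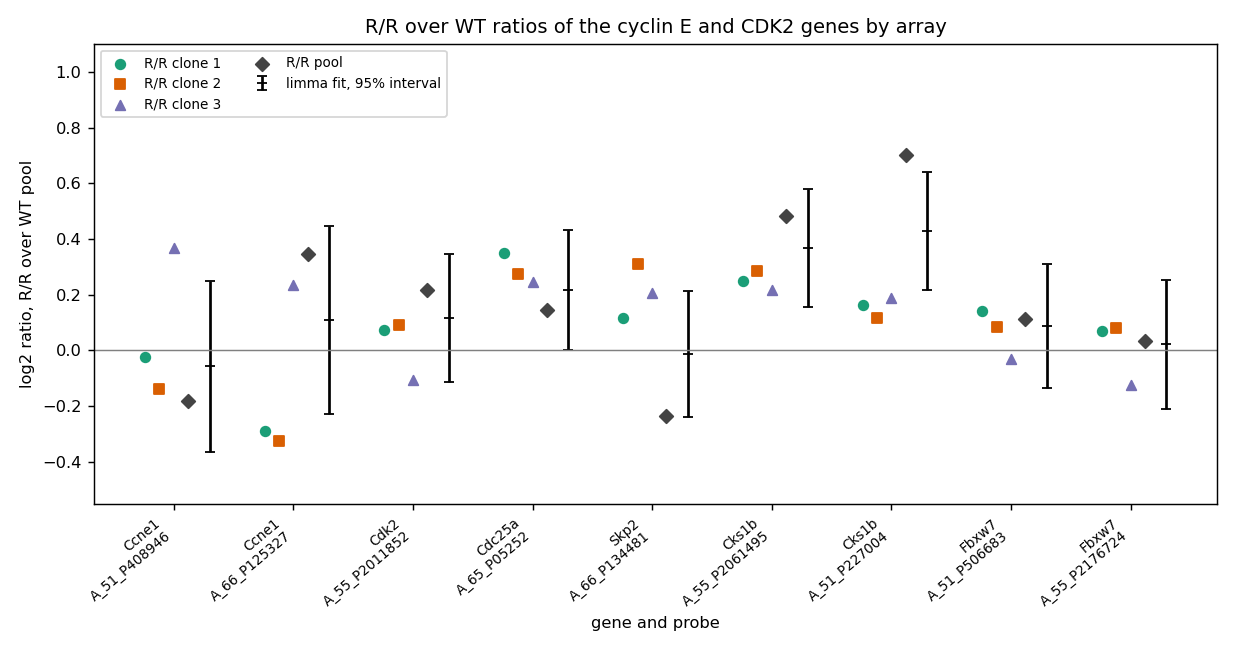
Log2 ratio of R/R over the WT pool on each of the 4 arrays (coloured symbols) for the 9 member probes tested, with the limma value and its 95% interval (black). Ccne2 is left out, as its probe was not above background. Both Cks1b probes and the Cdc25a probe lie above 0 on all 4 arrays, whereas the Ccne1 probes spread to both sides of 0.

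Ccne1 encodes cyclin E1, the regulatory subunit that directs CDK2 at the entry to S phase. By the brighter probe (A_51_P408946), the log2 signal of the R/R channel was 10.51 in clone 1, 10.45 in clone 2, 11.00 in clone 3 and 10.57 in the R/R pool. The WT pool gave 10.53, 10.59, 10.63 and 10.75 on the same arrays. Clone 3 was thus high, while clones 1 and 2 and the R/R pool lay at or below the WT pool, and the channels overlapped. The log2 ratios were -0.024, -0.14, 0.37 and -0.18, and the fitted value was -0.057 ± 0.12 (SE; limma adjusted p = 0.854; 95% interval -0.36 to 0.25).

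The dimmer Ccne1 probe (A_66_P125327) had R/R signals of 7.30, 7.06, 7.61 and 7.56 and WT signals of 7.59, 7.39, 7.38 and 7.22, in the same order of arrays. Its log2 ratios were -0.29 in clone 1, -0.33 in clone 2, 0.23 in clone 3 and 0.34 in the R/R pool. Clone 3 was again above clones 1 and 2, but this probe put the R/R pool above the WT pool, where the brighter probe put it below. The fitted value was 0.11 ± 0.14 (adjusted p = 0.742; interval -0.23 to 0.45). The SD over the clones was 0.27 by the brighter and 0.31 by the dimmer probe, above that of 76.2% and 83.5% of all tested probes. With 1 array per clone, the difference between clones had no test.

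Ccne2 encodes cyclin E2, the second E-type cyclin. Its log2 signal lay between 5.75 and 5.99 in the R/R channel and between 5.70 and 5.94 in the WT channel, not well above background on any array. No ratio is given for it, and a level below what these arrays detect cannot be compared between genotypes.

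Cdk2 encodes the catalytic subunit. Its R/R signals were 9.02, 9.18, 8.84 and 9.29 and its WT signals 8.94, 9.09, 8.94 and 9.07, so that the channels overlapped. The log2 ratio was slightly above 0 in clone 1 (0.072) and clone 2 (0.09), below 0 in clone 3 (-0.11) and highest in the R/R pool (0.22). The fitted value was 0.12 ± 0.093 (limma adjusted p = 0.590; interval -0.11 to 0.35), and on the clones alone it was 0.019.

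Cdc25a encodes the phosphatase that lifts inhibitory phosphorylation from CDK2. R/R signals were 10.34 in clone 1, 10.33 in clone 2, 10.21 in clone 3 and 10.11 in the R/R pool, all above the highest of the WT readings, which were 9.99, 10.06, 9.96 and 9.97. The channels thus did not overlap, but the share of all tested probes without overlap was not counted. The log2 ratio was above 0 on all 4 arrays (0.35, 0.27, 0.25 and 0.14). Of all tested probes, 14.6% were above 0 on all 4 arrays and 15.5% below. The fitted ratio was 1.16-fold, or 0.22 ± 0.087 on the log2 scale (interval 0.00097 to 0.43), which did not pass (limma adjusted p = 0.333). On the clones alone it was 0.29 (adjusted p = 0.181). The clones lay close together, with an SD of 0.054 against a median of 0.17 over all tested probes.

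**Figure D2:**
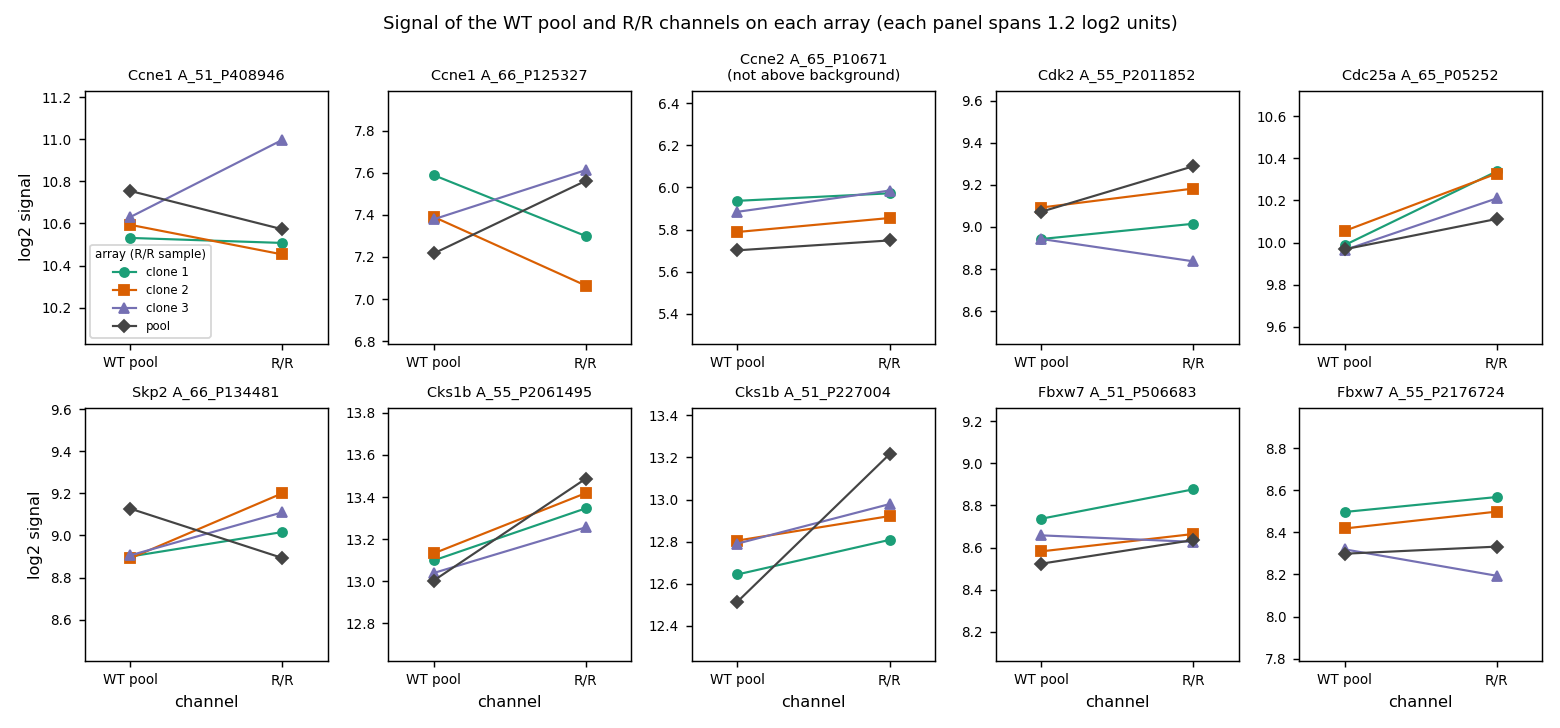
Log2 signal of the WT pool channel (left) and of the R/R channel (right) on each array, joined by a line per array, for the 10 probes. Each panel spans the same range of log2 units, and levels are not comparable between panels. Lines rise on all 4 arrays for Cks1b and Cdc25a, and cross for Ccne1 and Skp2.

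The 2 Cks1b probes had the highest fitted ratios of the set, in which the R/R pool has the weight of all clones together. Another member was higher in each clone: Cdc25a in clone 1, Skp2 in clone 2 and Ccne1 in clone 3. CKS1 is the adaptor through which SKP2 recognises phosphorylated p27, and it also binds CDKs directly. By the brighter probe (A_55_P2061495), R/R signals were 13.35, 13.42, 13.26 and 13.49 in clones 1, 2 and 3 and the R/R pool, and WT signals 13.10, 13.13, 13.04 and 13.00. Every R/R reading was above every WT reading, a pattern that was not counted over all tested probes. Log2 ratios were 0.25, 0.29, 0.22 and 0.48, and the fitted value was 0.37 ± 0.086 (1.29-fold; interval 0.15 to 0.58), short of the threshold (limma adjusted p = 0.159).

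The other Cks1b probe (A_51_P227004) had R/R signals of 12.81, 12.92, 12.98 and 13.22 and WT signals of 12.64, 12.81, 12.79 and 12.52. Here clone 1 lay level with the highest WT reading, and the R/R pool stood furthest from its WT channel. Log2 ratios were 0.16, 0.12, 0.19 and 0.70, with a fitted value of 0.43 ± 0.086 (1.35-fold; interval 0.22 to 0.64; limma adjusted p = 0.127). The ratio of every clone lay below this interval, and the distance of the R/R pool from the clones does not enter the SE. The R/R pool exceeded the clone mean by 0.54, a gap larger in size than that of 97.5% of tested probes, and on the clones alone the value was 0.16 (adjusted p = 0.388). For the brighter probe the value on the clones alone was 0.25 (adjusted p = 0.217). The clones were close to each other by both probes, with SDs of 0.035 and 0.036. The genome also holds a related gene, Cks1brt, and whether its transcript adds to the signal was not tested.

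Skp2 encodes the F-box protein that targets p27. R/R signals were 9.02, 9.20 and 9.11 in the clones and 8.89 in the R/R pool, and WT signals were 8.90, 8.89, 8.91 and 9.13. All 3 clones lay above their WT channels, by 0.12, 0.31 and 0.20 on the log2 scale, and the R/R pool lay below its own (-0.23). The same sign in all 3 clones was seen for 20.9% of tested probes in this direction. The fitted value was -0.012 ± 0.091 (limma adjusted p = 0.961; interval -0.24 to 0.21) and 0.21 on the clones alone (adjusted p = 0.296). The R/R pool fell below the clone mean by 0.44, a gap larger in size than that of 94.9% of tested probes.

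Fbxw7 encodes the substrate receptor for phosphorylated cyclin E. It was measured by 2 probes that the files assign to different transcripts, NM_080428 and NM_001177773. For the first (A_51_P506683), R/R signals were 8.88, 8.66, 8.63 and 8.64 and WT signals 8.74, 8.58, 8.66 and 8.52. For the second (A_55_P2176724), R/R signals were 8.57, 8.50, 8.19 and 8.33 and WT signals 8.50, 8.42, 8.32 and 8.30. Channels overlapped in both, and both probes had the same order of signs, above 0 in clones 1 and 2 and the R/R pool and below 0 in clone 3. Log2 ratios ran from -0.031 to 0.14 for the first probe and from -0.13 to 0.08 for the second. Fitted values were 0.088 ± 0.09 (limma adjusted p = 0.682; interval -0.13 to 0.31) and 0.021 ± 0.094 (adjusted p = 0.934; interval -0.21 to 0.25), so that neither probe showed a difference beyond its error. Whether each probe reads only its own transcript was not tested.

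On the clones alone, Cdc25a ranked first at 0.29, above Cks1b at 0.25 and 0.16. By fitted value over all arrays the members ran from Cks1b, through Cdc25a, Cdk2 and Fbxw7, to Skp2 and Ccne1, whose probes lay on either side of 0. The intervals of neighbours in this order overlapped, and the difference between members was not tested. Clones 1 and 2 were below clone 3 for Ccne1 by both probes, whereas Cdk2 and both Fbxw7 probes were lowest in clone 3.

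The genes whose ratios were most like those of the brighter Cks1b probe over the 4 arrays were sought among 12295 other genes with a symbol, by the root mean square difference of log2 ratios. The closest were Vars2 (0.031), Cep43 (0.043), Ddx18 (0.05), Tnpo1 (0.05) and Zfp595 (0.052). Their fitted log2 ratios lay between 0.35 and 0.40, and none passed the test (limma adjusted p of 0.141 to 0.173). They were chosen for likeness to a probe that did not pass, so these values largely follow from the choice. All of these ratios share the WT pool.

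The rest of the pathway was read from 7 lists holding 63 genes, of which 57 were tested, each through its brightest probe. None was called in either direction, where 0.664% of all genes were (0.21% higher, 0.454% lower). At an unadjusted p under 0.05 there were 17 of 57, in both directions, against 15.9% of all genes (7.5% higher and 8.37% lower). The list of CDK2 partners and activators held 6 of them, and each other list held 1 to 3, with Ccna2 in 2 lists. The median fitted log2 ratio was 0.020 over the 57 genes, with 32 above 0 and 25 below.

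Among CDK2 partners and activators, 8 of 10 genes were tested and 6 of them lay above 0 on all 4 arrays, as did 14.6% of all genes. The 6 were Cdk7, Ccnh, Cdk1, Cks2, Ccna2 and Cdc25b. Cdk1 encodes a separate kinase, so the list is not confined to partners and activators of CDK2. The median log2 ratio was 0.44. The list includes the CDK-activating kinase, which phosphorylates the activation loop of CDK2. Its catalytic subunit gene Cdk7 had ratios of 0.26, 0.53 and 0.39 in clones 1, 2 and 3 and 0.76 in the R/R pool, with a fitted value of 0.58 ± 0.097 (limma adjusted p = 0.090). Its cyclin gene Ccnh had 0.69, 0.75, 0.25 and 0.84, fitted at 0.70 ± 0.13 (adjusted p = 0.102). Cdk7 and Ccnh were above 0 on every array without passing. Mnat1, another subunit gene of the complex, did not share this direction. Its ratios were 0.20, -0.33, -0.14 and -0.20, fitted at -0.15 ± 0.13 (adjusted p = 0.619).

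Of the CDK2 inhibitors and inhibitory kinases, 7 of 8 genes were tested, with a median of 0.020. Cdkn1b, which encodes p27, the target of SKP2 and CKS1, had log2 ratios of -0.63, -0.83, -0.25 and -0.52 and a fitted value of -0.54 ± 0.13 (limma adjusted p = 0.164). The phosphatase gene Cdkn3, whose product inactivates CDK2, had 0.43, 0.13, 0.43 and 0.55, fitted at 0.44 ± 0.10 (adjusted p = 0.159). These 2 genes lay on opposite sides of 0 on all 4 arrays, and neither passed.

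All 11 genes of the SCF and APC/C ligase list were tested, with a median of -0.029. The RING subunit gene Rbx1 was at 0.35 ± 0.086 (limma adjusted p = 0.168), with its other probes at 0.36 and 0.10. Fbxo5, which encodes the APC/C inhibitor EMI1, was at -0.29 ± 0.089 (adjusted p = 0.226). Of the FBXW7 substrates other than cyclin E, 6 of 7 were tested, with a median of -0.19. Mycn was at -0.51 ± 0.13 (adjusted p = 0.178) and Mcl1, a survival gene of the BCL2 family, at -0.23 ± 0.089 (adjusted p = 0.315) and -0.25 by its other probe.

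**Figure D3:**
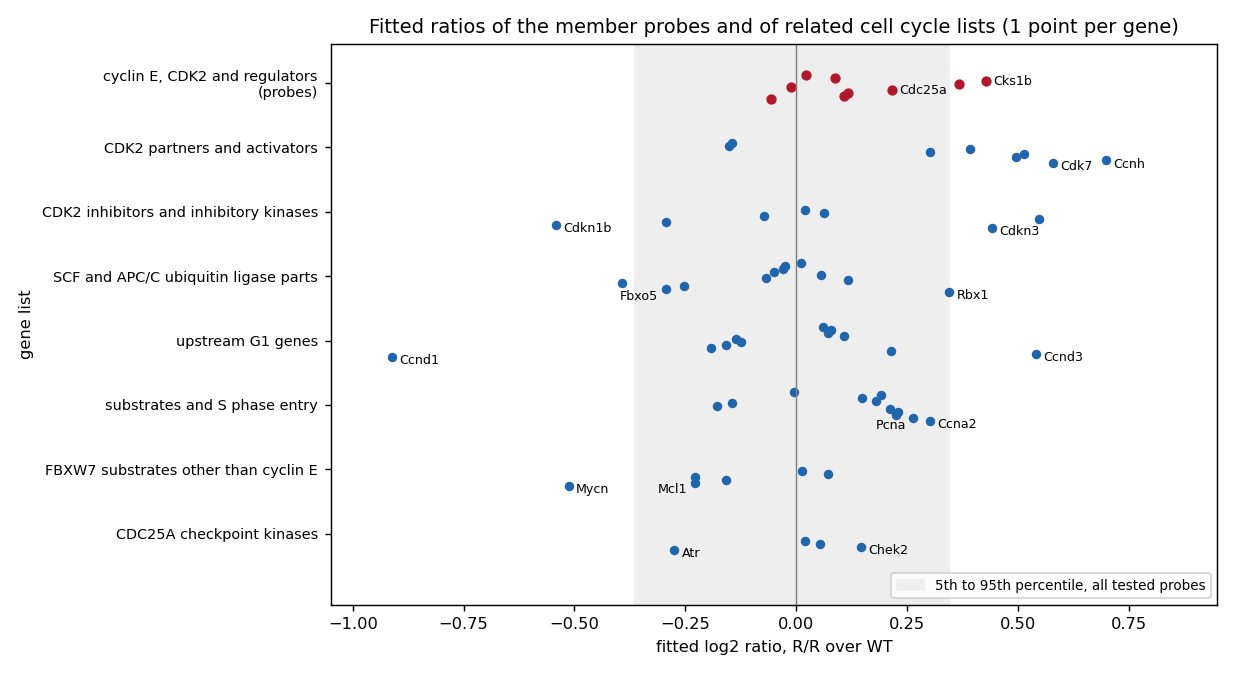
Fitted log2 ratio of R/R over WT for the 9 tested member probes (red) and for the 57 tested pathway genes in their 7 lists (blue, 1 point per gene, with Ccna2 in 2 lists); the grey band spans the 5th to 95th percentile of all tested probes. The list of CDK2 partners and activators reaches furthest to the right, with Ccnh at 0.70, and Ccnd1 lies furthest to the left, at -0.91.

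Upstream of cyclin E, the 11 G1 genes had a median of 0.061. Cyclin D1 (Ccnd1) had log2 ratios of -0.066 in clone 1, -1.31 in clone 2, -1.15 in clone 3 and -0.98 in the R/R pool, fitted at -0.91 ± 0.24 (limma adjusted p = 0.189). Clone 1 thus stood apart from the other arrays. Cyclin D3 (Ccnd3) was above 0 on all arrays (0.89, 0.39, 1.05 and 0.31), fitted at 0.54 ± 0.15 (adjusted p = 0.189), with its other probe at 0.40.

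Downstream, 11 of 12 genes of CDK2 substrates and S phase entry were tested. Their median was 0.19, with 8 above 0. Cyclin A2 (Ccna2), which replaces cyclin E on CDK2 during S phase, was at 0.30 ± 0.10 (limma adjusted p = 0.259), and the DNA clamp gene Pcna at 0.26 ± 0.091 (adjusted p = 0.271). The medians by array were 0.19, 0.14 and -0.14 in clones 1, 2 and 3 and 0.17 in the R/R pool, so that clone 3 was the low one. The checkpoint list holds kinases that lead to CDC25A destruction and the adaptor Clspn, and 4 of its 5 genes were tested (median 0.037), with Atr at -0.27 ± 0.09 (adjusted p = 0.250) and Chek2 at 0.15 ± 0.098 (adjusted p = 0.527).

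The 6 proliferation markers, which vary with the share of cycling cells, had medians of 0.15, 0.048 and 0.024 in clones 1, 2 and 3 and 0.059 in the R/R pool. Their fitted values ran from -0.082 (Top2a) to 0.76 (Ccnb1), and none passed the limma test. Ccnb1, Aurka and Plk1 lay above 0 on all 4 arrays with an unadjusted p under 0.05, at 0.76, 0.29 and 0.27, while Top2a, Mki67 and Bub1 were at -0.082, -0.062 and 0.0068. Their part in the values of Cks1b, Cdc25a and the CDK2 partner list was not tested. In bulk RNA, a change in the share of cells in a cycle phase and a change in RNA per cell cannot be told apart.

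**Figure D4:**
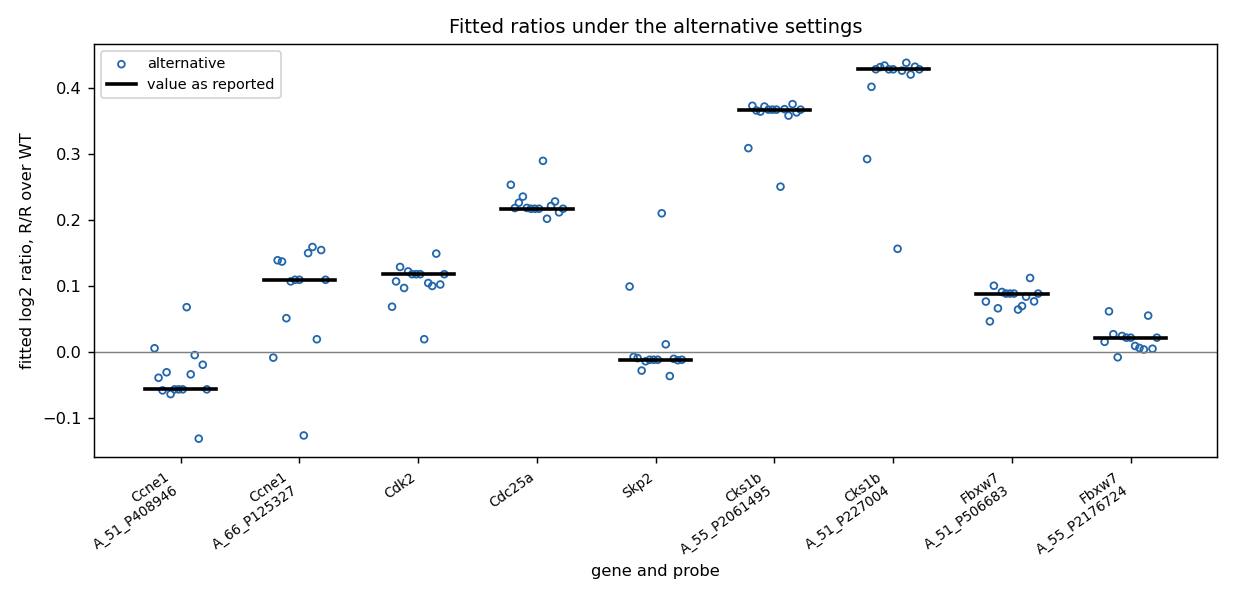
Fitted log2 ratio of R/R over WT of the 9 tested member probes as reported (black line) and under each alternative setting (open circles). Cks1b and Cdc25a stay above 0 throughout, and the Ccne1 and Skp2 values fall on both sides of 0.

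Across the alternative settings no member probe passed the limma test. The Cks1b probes ranged from 0.25 to 0.38 (A_55_P2061495) and from 0.16 to 0.44 (A_51_P227004), and Cdc25a ranged from 0.20 to 0.29. The lowest adjusted p among these was 0.071, for the brighter Cks1b probe when the R/R pool was counted as another replicate with no dye term.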

How the data were processed

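Transcript levels were measured on 4 two-colour Agilent arrays read with Feature Extraction 11.5.1.1, per the file headers. The scanner files hold, by their file headers, an uncorrected median intensity for each spot and its local background (per the file headers, no mean spot signal is among the columns). They also hold the scanner software's log10 ratio of Cy5 over Cy3 processed signals, per the file headers. The deposited log2 table holds ratios whose processing is not given in the sources used here. Its rows match no probe column, and it was used for counts alone. Read in row order, its columns had correlations of 0.995, 0.996 and 0.997 with the clones' own Cy5 over Cy3 ratios and -0.989 with those of the pool array, so its pool column is turned to R/R over WT. Its column medians were 0, 0.004, -0.0011 and -0.0014.

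With limma 3.58.1 in R 4.3.3, intensities were background-corrected (normexp, offset 50) and loess-normalised within arrays, control spots at weight 0 and outlier spots left out. Ratios were turned to R/R over WT, as the labels' dyes give. Channel signals were put on 1 scale with Aquantile. A probe was tested if either the R/R or the WT channel was flagged well above background on 3 or more arrays (26439 probes). A genotype and a dye term were fitted, two-sided, with Benjamini-Hochberg adjustment over all of them. All arrays lay on 1 slide, so no batch was tested. Of 55681 probes, 27656 were named through RefSeq accessions. The fit was also run on simulated ratios with independent noise on each array and a small dye effect. These held no error shared through the WT pool and no other departure of the R/R pool, so they cannot show how the fit handles either. Pathway genes given with values were the 2 of each list with the smallest p, and Mnat1 as a part of the CDK-activating kinase. Each gene was read through its brightest probe. The members and lists were chosen with earlier results of these data known. No statement says the clones came from separate animals. The p-values rest on the spread between these clones, moderated toward that of all tested probes, and neither pool adds spread to them. The number of arrays limits the precision. Alternatives concerned the log ratios, offset, normalization, filter, probe choice, samples, dye term, variance model and threshold.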

Additional observations from a re-analysis of the deposited data

How the results depend on the processing

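No member probe was called under any of the alternatives run, and Cdk2, Cdc25a, Cks1b and the Fbxw7 probe A_51_P506683 kept their direction in each. No member value was read from the deposited log2 table, whose rows match no probe column. The direction turned for values near 0. With no dye term Ccne1 went to 0.0050 (A_51_P408946) and -0.0092 (A_66_P125327) and Skp2 to 0.099, and on the clones alone these went to 0.067, -0.13 and 0.21. Skp2 was 0.011 without clone 1, with a range of -0.037 to 0.011 over the clones left out in turn. The Fbxw7 probe A_55_P2176724 was -0.0086 with median centring. The cause was not tested. Counts of called probes, higher and lower, were 632 and 797 with no dye term, 8 and 49 with log ratios as the scanner software wrote them, 3 and 29 with median centring, 31 and 57 with the strict filter, and 131 and 248 at an adjusted p under 0.10. Leaving out each clone gave 16 to 123 higher and 61 to 238 lower, the lowest without clone 1 and the highest without clone 3. With the brightest probe per gene, 29 were higher. That table, fitted over all its 59305 rows, gave 61 and 139. No setting moved the median over all probes by more than 0.025. No paired analysis was possible because no groups share replicate numbers in the labels, and each value is already a ratio within 1 array against the same WT pool. Signal over background left Ccne2 without a test, and the other 9 member probes were well above background on every array and channel.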
